A study of Homo sapiens with 4 samples.

Results

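This account describes 10 genes of the ATF4 stress response, the transcription factor gene ATF4 itself, DDIT3, TRIB3, CHAC1, NUPR1, ASNS, DDIT4 and SESN2, and the genes of 2 stress-secreted factors, GDF15 and STC2. They were chosen by name, as all probe sets that the platform annotation gives to exactly 1 of these symbols, which yielded 23 of the 49293 gene probe sets and 10 of the 18132 named genes. All 10 passed the filter on dim probe sets described next, as did 10958 genes in all. The established cell line A549, from a human lung adenocarcinoma, was grown in RPMI medium with serum for 48 h untreated, with 25 μmol/L dihydroberberine, with 2 μmol/L sunitinib, or with the 2 drugs together. Sunitinib inhibits receptor tyrosine kinases, and dihydroberberine derives from berberine, an alkaloid of plants, by reduction. Each condition was measured on 1 array, so no difference below has a replicate check or a test, and "higher" and "lower" compare single libraries. In such bulk RNA, fewer cells of a kind and less RNA per cell cannot be told apart.

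Levels are log2 signals of probe sets, and a difference of 1 on this scale is 2-fold. For each gene the probe set with the highest mean over the arrays is given first (the main probe set), and the gene was kept if at least 1 of the 4 arrays reached the floor, the median of all gene probe set values (log2 6.75). Signals of different probe sets are not compared with each other, because they differ in hybridisation. Spread could be taken only among several probe sets for the same gene. Its median SD was 0.14, 0.13 and 0.13 (log2, 6407 genes with 2 or more probe sets) for dihydroberberine, sunitinib and both drugs against untreated, which leaves out any error from one library to another.

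The arrays had median gene signals between 6.73 and 6.76 and correlated with r between 0.986 and 0.994. The dihydroberberine array stood apart in its control probe sets. Its 18S rRNA signal differed from untreated by -0.63, its Alu signal by -0.41 and the median of its background probes of 15 to 25 G or C by 0.45, against -0.24, 0.03 and 0.29 on the sunitinib array and -0.21, 0.03 and 0.25 on the combination array. The part of this in the results was not tested, and for each of the 10 genes the difference that avoids this array, the combination against sunitinib, is given. Of 9 markers of A549 and epithelial cells 7 passed the filter, with mean levels between 13.8 and 13.9 on the 4 arrays, while EPCAM and CDH1 reached at most 4.75 and 4.90. Of 8 markers of blood, endothelial and stromal cells with a probe set, CD14, CD68 and VWF passed, and their summed level was 24.3 on the untreated array, 22.7 with dihydroberberine, 21.0 with sunitinib and 20.1 with both drugs. The 3 genes did not move together. CD14, which reached the floor on the untreated array only, differed from it by -2.07, -2.55 and -3.06 with dihydroberberine, sunitinib and both drugs. CD68 gave 0.26, -0.83 and -1.10, and VWF 0.20, 0.10 and -0.01. The part of these markers in the results was not tested. PTPRC, CD3E, PECAM1, COL1A1 and DCN stayed under the floor on every array.

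In the integrated stress response, kinases that sense missing amino acids, unfolded protein, double-stranded RNA or mitochondrial damage phosphorylate the translation factor eIF2. General translation then slows, while the ATF4 messenger is translated more efficiently, so ATF4 activity is governed largely by its translation and less by its transcript level. ATF4 pairs with C/EBP proteins on composite promoter elements and induces enzymes of amino acid supply, the factor DDIT3 (CHOP), feedback inhibitors and secreted hormones. Several of these genes are also induced by other routes, such as p53, hypoxia or MAP kinase signalling.

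Promoter sequences were searched for the letters of the composite element close to the start. RefSeq entries (GRCh38.p14) were held for 9 of the 10 genes, and NUPR1 had none. The 250 bases before each listed start were searched on both strands for 3 motifs that do not overlap each other here, the core of the composite C/EBP-ATF element TGATGNAA, the AP-1 site TGANTCA and the cyclic AMP response element TGACGTCA. The first was found before 2 of the genes, ASNS and CHAC1, where 3.89% of all 27305 genes with an entry hold it. The second was found before DDIT3 (8.06% of all genes) and the last before none of the 9 (2.03% of all genes). The 4 stretches below are shown because the drug patterns of these genes differ in the results. Whether the matches bear on the patterns was not tested. ASNS was higher with each drug, DDIT3 and GDF15 mainly with dihydroberberine, and CHAC1 by at least 1.5-fold with neither. The capitals mark the motif matches, all sequences run 5′ to 3′ on the gene's strand and end at the base before the start. For ASNS the stretch is chr7:97872409-97872658 (minus strand), for CHAC1 chr15:40953221-40953470 (plus strand), for DDIT3 chr12:57520518-57520767 (minus strand) and for GDF15 chr19:18385908-18386157 (plus strand).
ASNS: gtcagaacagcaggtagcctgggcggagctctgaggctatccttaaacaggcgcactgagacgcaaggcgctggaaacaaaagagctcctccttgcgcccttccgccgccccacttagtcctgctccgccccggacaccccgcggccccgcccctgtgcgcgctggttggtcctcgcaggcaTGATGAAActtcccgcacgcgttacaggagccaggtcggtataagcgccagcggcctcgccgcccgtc
CHAC1: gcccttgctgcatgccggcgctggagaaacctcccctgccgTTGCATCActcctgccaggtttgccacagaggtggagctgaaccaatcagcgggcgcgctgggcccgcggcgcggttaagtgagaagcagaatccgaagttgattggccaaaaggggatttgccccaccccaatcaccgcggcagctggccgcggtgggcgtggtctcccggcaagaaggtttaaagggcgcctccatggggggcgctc
DDIT3: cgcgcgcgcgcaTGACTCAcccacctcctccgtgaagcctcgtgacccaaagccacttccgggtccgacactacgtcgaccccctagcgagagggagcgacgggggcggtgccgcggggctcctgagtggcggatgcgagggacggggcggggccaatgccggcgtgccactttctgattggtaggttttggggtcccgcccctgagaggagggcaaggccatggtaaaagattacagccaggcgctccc
GDF15: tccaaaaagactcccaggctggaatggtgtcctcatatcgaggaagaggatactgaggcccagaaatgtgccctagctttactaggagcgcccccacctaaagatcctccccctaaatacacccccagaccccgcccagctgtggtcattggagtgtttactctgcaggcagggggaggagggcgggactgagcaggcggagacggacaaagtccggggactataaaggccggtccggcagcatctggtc

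The ASNS match begins 68 bases before the start and the CHAC1 match, which reads TTGCATCA on the gene's strand, 209 bases before it. The stretch before another listed start of ASNS (chr7:97872166-97872415) held no match. The AP-1 match of DDIT3 begins 238 bases before the start. A match is a run of letters and not a shown binding site, and elements outside these windows were not searched.

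The factor at the head of the pathway hardly differed between arrays at the transcript level. ATF4 read 14.1 in untreated cells, 14.2 with dihydroberberine, 14.2 with sunitinib and 14.2 with both drugs. Its differences from untreated were 0.14, 0.13 and 0.11. These are about as large as the median spread between probe sets of a gene. ATF4 has a single probe set of a type whose probes may also match other transcripts.

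DDIT3 encodes CHOP, the stress factor that ATF4 induces and that promotes cell death in lasting stress. It read 8.24 untreated, 9.48 with dihydroberberine, 8.26 with sunitinib and 8.38 with both drugs. The dihydroberberine array alone was high, and the combination array lay at the level of the untreated and sunitinib arrays. The difference with dihydroberberine was 1.24 (2.37-fold), the 53rd highest of 10958 genes, and its other probe set gave 1.26. In the combination against sunitinib it was 0.12 with one probe set and -0.10 with the other. The higher level of DDIT3 therefore rests on the dihydroberberine array alone. In the combination against dihydroberberine the difference was -1.10 (2.15-fold lower), the 34th lowest of all genes.

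TRIB3, a pseudokinase that DDIT3 and ATF4 induce and that restrains ATF4 in turn, read 11.4 untreated, 12.2 with dihydroberberine, 11.8 with sunitinib and 11.8 with both drugs. Its second probe set read 9.13, 9.91, 9.32 and 9.38. Both probe sets differed by 0.78 with dihydroberberine (1.72-fold), and by 0.35 and 0.19 with sunitinib. As with DDIT3, the dihydroberberine array was the highest, and the combination lay next to sunitinib, with a difference of 0.03 between them.

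CHAC1, which degrades glutathione and is a sensitive target of ATF4 and DDIT3 in other settings, did not follow them. It read 10.0 untreated, 9.23 with dihydroberberine, 9.98 with sunitinib and 9.68 with both drugs. Dihydroberberine gave the lowest level in both probe sets, with differences from untreated of -0.78 (1.71-fold lower) and -0.59. Sunitinib gave -0.03 and 0.08. With sunitinib present the combination was lower than sunitinib alone by -0.29 and -0.22. CHAC1, whose promoter stretch with the composite core is printed above, was thus not 1.5-fold higher in any treated library.

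NUPR1, a small stress-induced chromatin protein, was far higher in all 3 treated libraries. Its single probe set read 6.67 untreated, 8.35 with dihydroberberine, 9.89 with sunitinib and 9.81 with both drugs. The untreated level was under the floor and close to the background probes (6.70 on that array), so that the gene passed the filter only through its treated arrays, while every treated level was above the background median of its own array. Raising the untreated level to the floor, sunitinib gave at least 8.79-fold, both drugs at least 8.30-fold and dihydroberberine at least 3.02-fold more. The direct difference of dihydroberberine from sunitinib was -1.54, the most negative of the 10 genes, and those of SESN2 (-0.79) and CHAC1 (-0.75) came next. The combination lay next to sunitinib, with a difference of -0.08.

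ASNS, asparagine synthetase, was higher by nearly the same amount in all 3 treated libraries. Its main probe set read 12.8 untreated, 13.7 with dihydroberberine, 13.7 with sunitinib and 13.7 with both drugs. The differences were 0.86, 0.90 and 0.89 (1.82-fold, 1.86-fold and 1.85-fold). The other 3 probe sets gave 0.87 to 1.10 with dihydroberberine, 0.90 to 1.10 with sunitinib and 0.88 to 1.13 with both. The 2 probe sets of the same type as that of ATF4 had the smaller values and stayed under 2-fold, and the other 2 passed it with each drug. In all 4 probe sets the treated libraries differed from each other by at most 0.04. Among all genes ASNS ranked 179th from the highest with dihydroberberine and 34th with sunitinib.

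**Figure D1:**
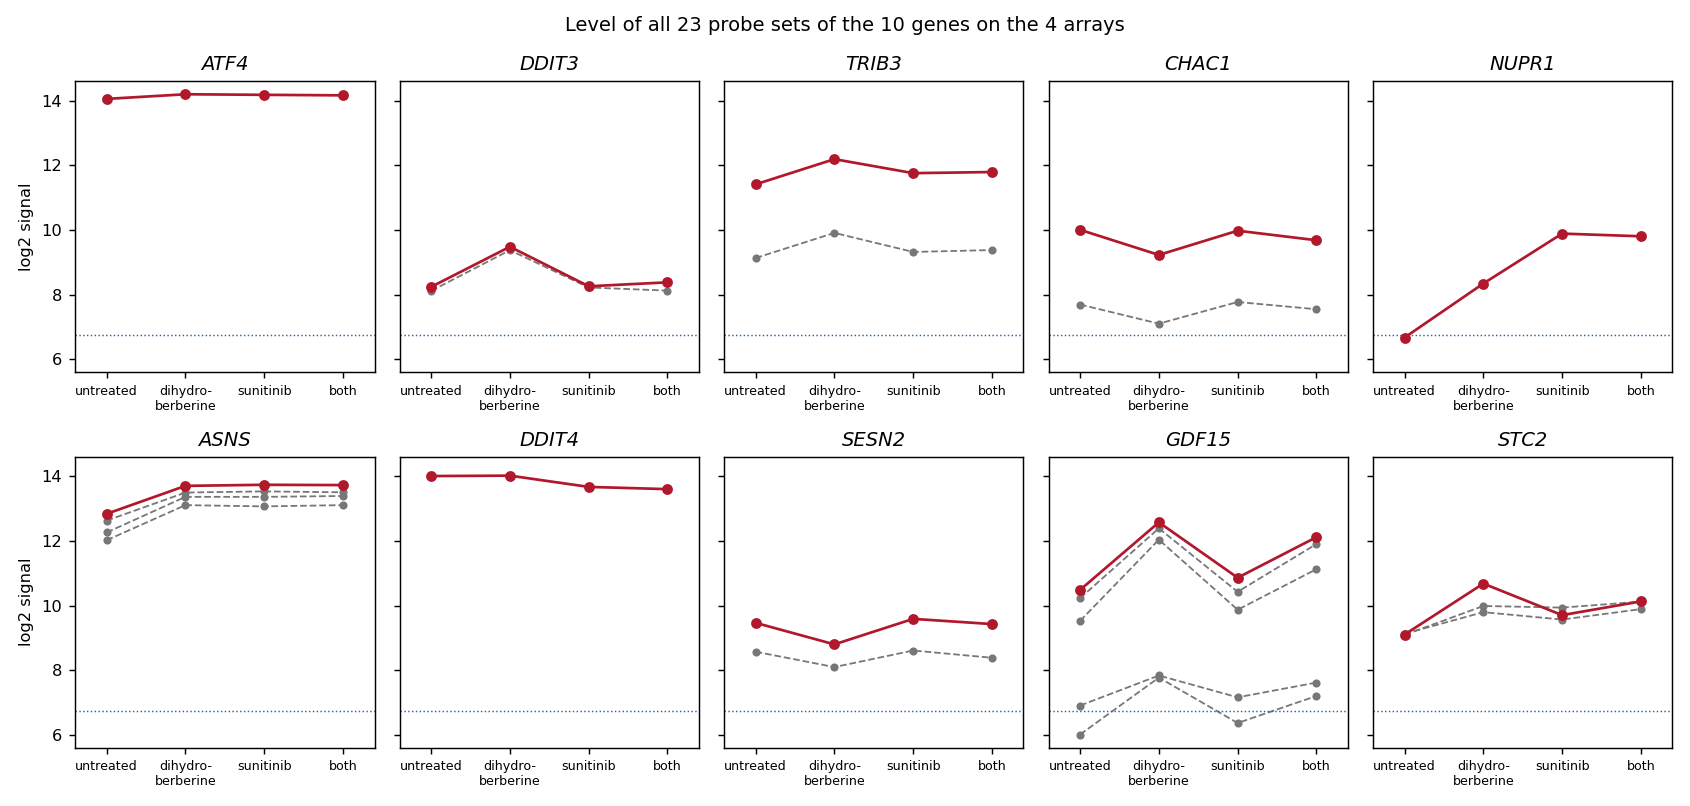
The log2 signal (vertical axis) of all 23 probe sets on the 4 arrays (horizontal axis), 1 panel per gene and 1 line per probe set. The red line is the probe set of highest mean signal and the grey dashed lines are the others, lines join values of 1 probe set and mean no order in time, and the blue dotted line is the floor of 6.75. DDIT3, TRIB3 and GDF15 peak on the dihydroberberine array, NUPR1 on the sunitinib and combination arrays, and ASNS is level over the 3 treated arrays.

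DDIT4 and SESN2 encode inhibitors of the growth kinase mTORC1 that ATF4, p53 and hypoxia can induce, and neither was 1.5-fold higher in any treated library. DDIT4 read 14.0 untreated, 14.0 with dihydroberberine, 13.7 with sunitinib and 13.6 with both drugs. The 2 arrays with sunitinib were the lower ones, by -0.34 and -0.40 from untreated, and by -0.42 in the combination against dihydroberberine. It has 1 probe set. SESN2 read 9.47 untreated, 8.80 with dihydroberberine, 9.59 with sunitinib and 9.43 with both drugs. The dihydroberberine array alone was low, by -0.67 (1.59-fold) in one probe set and -0.47 in the other, and in the combination against sunitinib the differences were -0.16 and -0.22. CHAC1 and SESN2 were the 2 genes at least 1.5-fold lower with dihydroberberine, a size that 12.6% of all genes reached, so that such values are common on this array. SESN2 fell short of 1.5-fold with the mean of its probe sets (-0.57) and with quantile normalization (-0.53).

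GDF15, a secreted cytokine of the TGF-beta family that is a blood marker of cellular stress, had the largest difference of the 10 genes with dihydroberberine. Its main probe set read 10.5 untreated, 12.6 with dihydroberberine, 10.9 with sunitinib and 12.1 with both drugs. The 2 arrays with dihydroberberine were high, and sunitinib lay nearer to untreated, though above it. The difference with dihydroberberine was 2.09 (4.25-fold), the 11th highest of all genes, and that in the combination against sunitinib, which shares no library with it, was 1.25 (2.39-fold), the 32nd highest. Sunitinib alone gave 0.38. All 5 probe sets had the same signs, from 0.93 to 2.51 with dihydroberberine, 0.46 to 1.48 in the combination against sunitinib and 0.20 to 0.38 with sunitinib. The smallest values with dihydroberberine and in the combination came from a dim probe set that read 6.91 in untreated cells, near the floor. A dimmer one, under the floor on the untreated and sunitinib arrays, gave 1.76 with dihydroberberine and 0.84 in the combination against sunitinib. The main probe set is of the same type as that of ATF4, whose probes may also match other transcripts.

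STC2, a secreted glycoprotein of the stanniocalcin family that ATF4 induces, was higher with each drug, but by how much depended on the probe set. The main probe set read 9.11 untreated, 10.7 with dihydroberberine, 9.71 with sunitinib and 10.1 with both drugs. The second read 9.10, 9.99, 9.94 and 10.1, and the third 9.13, 9.80, 9.57 and 9.90. The main probe set thus gave dihydroberberine a clear lead, with 1.58 (2.98-fold) against 0.60 (1.52-fold) with sunitinib. The other 2 gave 0.89 and 0.67 with dihydroberberine against 0.84 and 0.44 with sunitinib, and placed the combination highest. The direct difference of dihydroberberine from sunitinib was 0.98, 0.05 and 0.23 in the 3 probe sets. In the combination against sunitinib the 3 gave 0.42, 0.18 and 0.32. Every treated library read above untreated in all 3.

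To compare genes higher with one drug only with those higher with each of them, each drug alone was set against untreated at 2-fold and at 1.5-fold. The 2 comparisons share the untreated library, so an unusual value there enters both. Dihydroberberine gave 4 of the 10 genes at least 2-fold, NUPR1, GDF15, STC2 and DDIT3, where 1.05% of all genes passed. Sunitinib gave 1, NUPR1, where 0.21% passed. Thus 3 genes, DDIT3, GDF15 and STC2, were higher with dihydroberberine only (0.967% of all genes), none with sunitinib only (0.128%) and NUPR1 with each drug (0.0821%). NUPR1 passed the filter only through its treated arrays, so its place beside these shares is a description. With its untreated level raised to the floor it gave at least 3.02-fold with dihydroberberine and 8.79-fold with sunitinib. At 1.5-fold dihydroberberine gave 6 genes (4.86% of all genes passed) and sunitinib 3 (1.61%). The genes higher with dihydroberberine only were then DDIT3, TRIB3 and GDF15 (4.21% of all genes), none were higher with sunitinib only (0.949%), and those higher with each drug were NUPR1, STC2 and ASNS (0.657%). STC2, ASNS and TRIB3 therefore change class with the size chosen, and ASNS reached 2-fold with each drug in 2 of its 4 probe sets. When the combination against sunitinib replaced dihydroberberine against untreated, a replacement chosen after seeing the data that leaves out the dihydroberberine library, 1 gene, GDF15, stayed at least 2-fold with dihydroberberine only, and NUPR1 passed with sunitinib only.

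**Figure D2:**
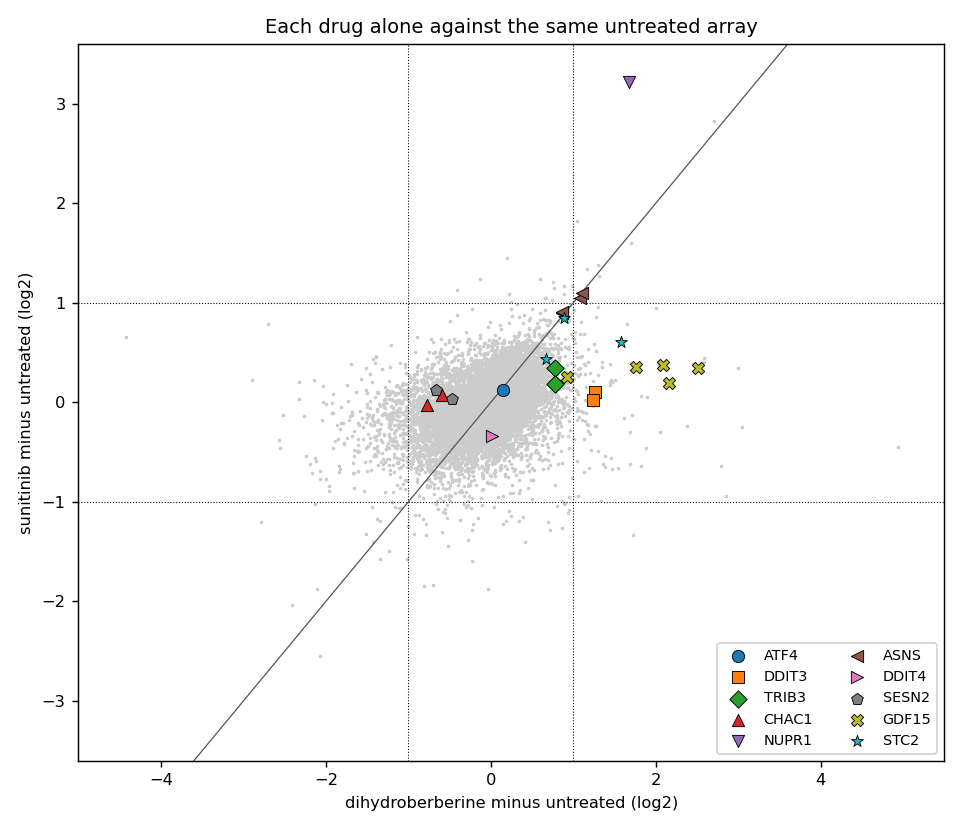
Difference from untreated with dihydroberberine (horizontal axis, log2) against that with sunitinib (vertical axis, log2), with 1 coloured symbol for each of the 23 probe sets and 1 grey dot for each of 10958 genes. The dotted lines mark 2-fold and the diagonal marks equal differences. The ASNS symbols lie on the diagonal, those of GDF15 and DDIT3 to the right of it at 0.02 to 0.38 for sunitinib, and NUPR1 above it at 1.67 and 3.21.

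The direct difference between the drugs follows from the values that set the classes and is given as a description. Dihydroberberine exceeded sunitinib by 1.71 for GDF15, 1.22 for DDIT3 and 0.43 for TRIB3, and every probe set of these 3 genes had this sign, with 0.68 to 2.17 over the 5 of GDF15. NUPR1 gave -1.54. STC2, in the class of each drug at 1.5-fold, gave 0.98 in its main probe set, more than TRIB3. For ASNS the 4 values lay between -0.04 and 0.04. ATF4 gave 0.02, DDIT4 0.35, SESN2 -0.79 and CHAC1 -0.75.

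The combination was read against each single drug, and the values against dihydroberberine share the library that placed a gene in the dihydroberberine class. Genes of 1 class did not share 1 position. ASNS differed by -0.01 from sunitinib and by 0.02 from dihydroberberine, and NUPR1 by -0.08 from sunitinib. For STC2 the combination lay -0.55 from dihydroberberine in the main probe set, and 0.13 and 0.09 above it in the others. For DDIT3 and TRIB3 the combination lay close to sunitinib and below dihydroberberine by -1.10 and -0.40. GDF15 kept most of its difference, with 1.63 (3.10-fold) from untreated and -0.46 from dihydroberberine. With both drugs 3 of the 10 genes were at least 2-fold higher than untreated, NUPR1, GDF15 and STC2 (1.16% of all genes). When its 3 probe sets were averaged the difference of STC2 was 0.94, and 2 genes passed. In the combination against sunitinib this was GDF15 alone (0.721%), and against dihydroberberine NUPR1 alone (2.78%).

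In the main probe set the combination exceeded both single drugs for none of the 10 genes, where 30.5% of all genes did so. Over all 23 probe sets it did so in 4, namely 2 of STC2 and 2 of ASNS. It lay between the drugs in the main probe set of 8 genes (39.0% of all genes) and below both in that of ATF4 and DDIT4 (30.5%), in each case by small amounts from sunitinib (-0.02 and -0.07). The deviation from additivity, which is what remains of the combination's difference from untreated once those of the 2 drugs are subtracted, was below 0 for 8 of the 10 genes against 42.9% of all genes. It was at least 1.5-fold below 0 for 6 genes, NUPR1 (at most -1.68 with its untreated level raised to the floor), STC2 (-1.15), DDIT3 (-1.12), ASNS (-0.87), GDF15 (-0.83) and TRIB3 (-0.75), a size that 3.73% of all genes reached. All probe sets of the 5 genes other than NUPR1 gave a negative value, from -1.36 to -0.34. The positive values were those of SESN2 (0.51) and CHAC1 (0.48), the genes that were low on the dihydroberberine array. The deviation holds each of the 4 libraries once, so a gene high with each drug and level between them, such as ASNS, has a negative value of about the size of 1 drug's difference. The 6 genes are also those at least 1.5-fold higher with dihydroberberine, whose library the deviation subtracts. Both this count and that of genes above both drugs thus use values that set the classes, and are descriptions only.

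**Figure D3:**
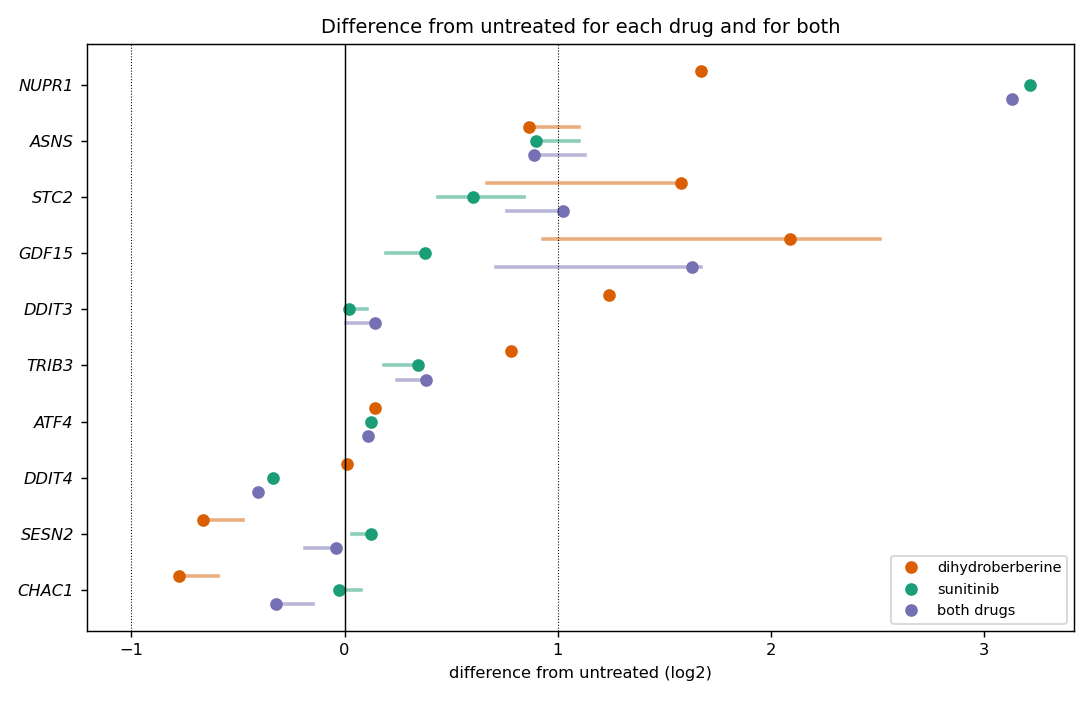
Difference from untreated (horizontal axis, log2) of each gene with dihydroberberine (orange), sunitinib (green) and both drugs (purple). Points are the probe set of highest mean signal, bars span the lowest to the highest probe set of the gene where it has several, and dotted lines mark 2-fold. For ASNS the 3 points coincide near 0.9, while DDIT3 and TRIB3 have the combination beside sunitinib.

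Over the 10 genes the median difference from untreated was 0.82 with dihydroberberine, 0.24 with sunitinib and 0.26 with both, beside -0.03, -0.04 and -0.02 over all genes. Differences were positive for 8, 8 and 7 of them, where 46.9%, 44.3% and 47.3% of all genes were positive. These medians describe a list put together with results of these data known.

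Other genes of the pathway were looked at in lists. A subunit of eIF2, its kinases and phosphatase subunits and the proteins that regulate them had medians of -0.04, -0.15 and 0.12 (11 genes) with dihydroberberine, sunitinib and both drugs. PPP1R15A, the feedback subunit that restores eIF2 and is induced with DDIT3, read 7.89 untreated, 8.84 with dihydroberberine, 7.86 with sunitinib and 8.08 with both, and was the only one of the 11 at least 1.5-fold higher with either drug alone. It was high on the dihydroberberine array alone, as DDIT3 was, and differed by 0.22 in the combination against sunitinib. EIF2AK3, the endoplasmic reticulum kinase PERK, was the only one at least 1.5-fold lower, by -0.69 with dihydroberberine. Over all genes 4.86% were that much higher and 12.6% lower with dihydroberberine, and 1.61% and 3.78% with sunitinib. The 1 lower gene of 11 is thus no more than the share over all genes. With both drugs IMPACT, an inhibitor of the amino acid sensor GCN2, differed by 0.64.

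Of the 9 partners of ATF4 and related factors, CEBPG, a dimer partner of ATF4, was higher with each drug. It differed by 0.71 with dihydroberberine, 0.81 with sunitinib and 0.95 with both drugs, and its second probe set by 0.95, 0.50 and 0.65. ATF5, a related factor that ATF4 induces, was higher with sunitinib only, with 0.93 against -0.23 with dihydroberberine, and its other probe set above the floor gave 0.33 and -0.24. ATF3 gave 0.51 with dihydroberberine and -0.32 with sunitinib. CEBPD, an inflammatory factor of the C/EBP family, was lower by -0.69, -0.82 and -0.96. No gene of this list reached 2-fold against untreated. Of all 10958 genes 115, 23 and 127 were 2-fold higher with dihydroberberine, sunitinib and both drugs. Another 386, 64 and 164 were 2-fold lower, so that none among 9 is near the shares over all genes.

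Among 28 other targets of ATF4 that passed the filter, of 32 listed, 23 were positive with dihydroberberine, 25 with sunitinib and 26 with both drugs, and the medians were 0.34, 0.47 and 0.38. At 1.5-fold 9 were higher and 3 lower with dihydroberberine, 9 higher and 0 lower with sunitinib, and 11 higher and 0 lower with both. Over all genes 4.86%, 1.61% and 6.85% were that much higher and 12.6%, 3.78% and 7.24% lower, so that the 3 lower ones with dihydroberberine are no more than the share over all genes. Each drug alone gave at least 1.5-fold for PCK2, WARS1, SARS1, EPRS1, PHGDH, ALDH1L2, EIF4EBP1 and NIBAN1, 8 genes (0.657% of all genes). Dihydroberberine only gave 1, CARS1 (4.21% of all genes), and sunitinib only gave 1, MARS1 (0.949%), at 0.59 against 0.55 with dihydroberberine. ALDH1L2 passed the filter on the combination array only, and its levels on the other 3 were under the floor, so its place among the 8 rests on levels near background. PHGDH, the first enzyme of serine synthesis, gave 0.61 and 0.63 with the single drugs but 0.12 with both. PCK2, the mitochondrial phosphoenolpyruvate carboxykinase, gave 1.31 and 1.27 with the single drugs and 1.05 with both, and WARS1, a tRNA synthetase, 0.98, 1.17 and 1.12. NIBAN1, a regulator of translation in stress, gave 1.70, 1.60 and 2.02, but the lowest values among its 3 probe sets were 0.55, 0.48 and 0.61. SARS1, another tRNA synthetase, gave 0.93, 0.82 and 0.76, and EIF4EBP1, a repressor of translation, 0.66, 0.82 and 0.65. In WARS1, SARS1 and EIF4EBP1 the 3 values lay less close together than the 0.86, 0.90 and 0.89 of ASNS. Those of MARS1 lay about as close as in ASNS, at 0.55, 0.59 and 0.59, though its lowest probe set gave 0.09 with both drugs. The 3 lower ones with dihydroberberine were the amino acid transporters SLC7A5 (-0.93) and SLC7A1 (-0.66) and the growth factor VEGFA (-0.63), named after their values were seen. For SLC7A5 a second probe set gave 0.04, and the 10 probe sets of VEGFA ran from -0.66 to 0.31.

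Of 7 relatives of the 10 genes that passed the filter, none was at least 1.5-fold higher with either drug alone. Over all genes 4.86% were so with dihydroberberine and 1.61% with sunitinib, so that none among 7 is near these shares. SESN3, a paralogue of SESN2, was lower by -0.77, -0.77 and -1.19, and STC1, the paralogue of STC2, by -0.95 with sunitinib against 0.09 with dihydroberberine, with -1.59 to -0.95 over its 4 probe sets with sunitinib. TRIB1, a paralogue of TRIB3 that fell under the floor on the dihydroberberine array only and is named after its values were seen, read 8.54, 6.63, 8.63 and 8.78.

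Chaperones of the other 2 arms of the unfolded protein response, which XBP1 and ATF6 drive, were not higher beside DDIT3 and GDF15. Over 15 genes the medians were -0.21 with dihydroberberine, -0.34 with sunitinib and -0.26 with both, with 3, 4 and 5 genes at least 1.5-fold lower and 0, 0 and 2 higher. Over all genes 12.6%, 3.78% and 7.24% were that much lower, and 4.86%, 1.61% and 6.85% that much higher. SDF2L1, a co-chaperone, gave -1.10, -0.86 and -1.21, and HSPA5, the main chaperone BiP and named outside the rule, -0.21, -0.34 and -0.45. For HSPA5 these were the smallest differences of its 6 probe sets, which reached -0.59, -0.99 and -1.05. SEL1L, which serves the removal of misfolded protein, went the other way with 0.42, 0.24 and 0.89, as did the co-chaperone DNAJB9 with 0.56, 0.37 and 0.87. Targets of p53, which can also induce GDF15 and SESN2, had medians of 0.20, 0.25 and 0.43 over 13 genes. Of these 7, 9 and 13 were positive, where 46.9%, 44.3% and 47.3% of all genes were. CDKN1A, the cell cycle inhibitor p21, gave 0.62, 0.27 and 1.07. MDM2, which degrades p53, gave -0.64 with dihydroberberine, where its probe sets above the floor ran from -0.65 to 0.65. With both drugs those probe sets of MDM2 ran from 0.34 to 1.35. The 3 p53 targets at least 2-fold higher with both drugs (1.16% of all genes) were CDKN1A, RRM2B and FAS, the last named after its values were seen. No p53 target was 2-fold higher with either drug alone, so by their selection these 3 read highest with both drugs. FAS was under the floor in untreated cells (6.71). The probe sets of RRM2B above the floor ran from 0.41 to 1.15 with both drugs.

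**Figure D4:**
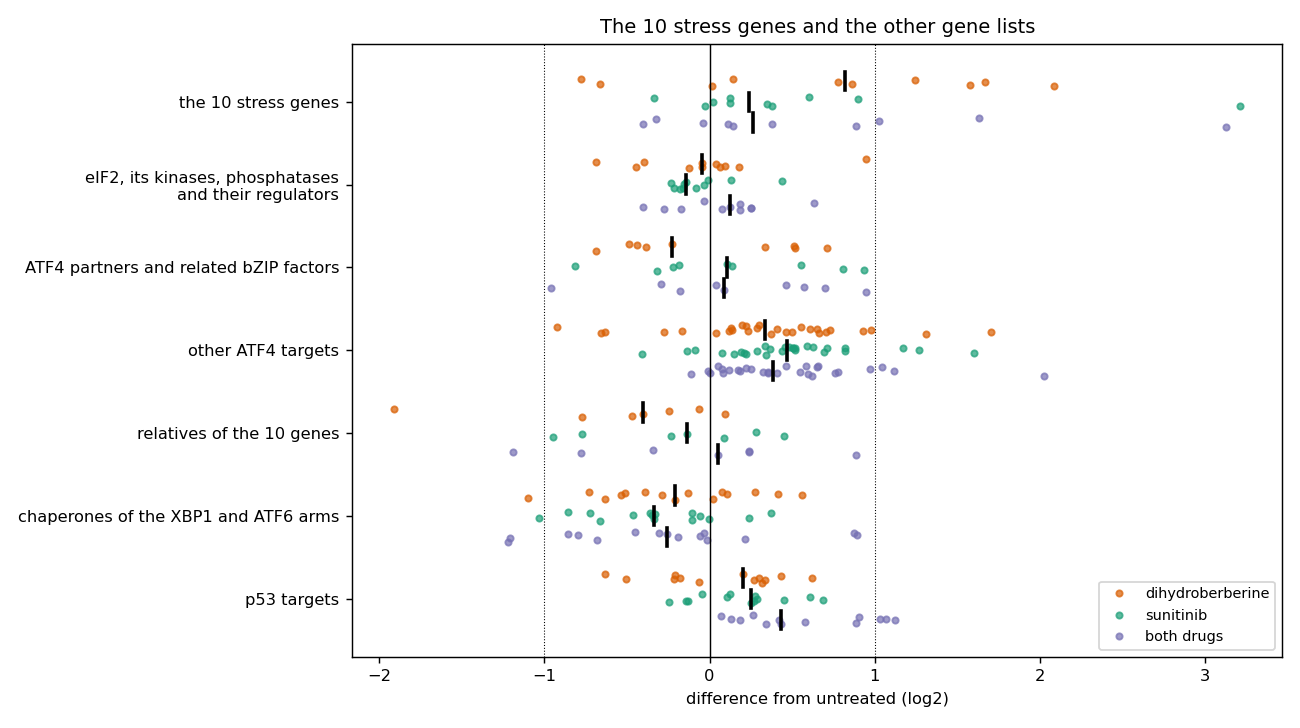
Difference from untreated (horizontal axis, log2) of the genes of each list (vertical axis) with dihydroberberine (orange), sunitinib (green) and both drugs (purple), 1 point per gene that passed the filter. Black bars are medians and dotted lines mark 2-fold. The other targets of ATF4 have medians of 0.34, 0.47 and 0.38, and the chaperones lie mostly below 0.

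Genes with the most similar profile were sought for the 3 genes at least 2-fold higher and above the floor on all arrays, by the Euclidean distance over the 3 differences from untreated, among 9822 genes. A distance over 3 values that share the untreated library describes these arrays only. Nearest to GDF15 were IL1A, the cytokine interleukin 1 alpha (distance 0.24), FOSL1, an AP-1 subunit (0.38), and NT5E, the nucleotidase CD73 (0.45). IL1A differed by 2.02, 0.38 and 1.86 with dihydroberberine, sunitinib and both, beside 2.09, 0.38 and 1.63 for GDF15. The 6 probe sets of FOSL1 ran from 0.82 to 2.46 with dihydroberberine. Nearest to DDIT3 were ADPRM (0.20), PRKAA1, a catalytic subunit of AMP-activated kinase (0.29), and PITPNC1, a phosphatidylinositol transfer protein (0.30). The place of PRKAA1 rests on 1 probe set. That one gave 1.16 with dihydroberberine, and the other above the floor gave -0.13. Nearest to STC2 were UBR4, a ubiquitin ligase (0.35), VRK2, a kinase (0.41), and TBC1D2, a protein with a Rab GTPase-activating domain (0.46). None of these 9 genes belongs to the lists above.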

How the data were processed

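RNA of 4 cultures, 1 per condition, was measured on Affymetrix arrays. Per the labels' protocols it was labelled with biotin by a 3′ IVT kit, although the design text names an Agilent array. The authors deposited 1 value per probe set and array, read here as log2 from their range. The submitters' processing notes list Affymetrix Expression Console. How probes were summarized and arrays scaled is not given in the sources used here. Of 49293 gene probe sets, 44988 had 1 symbol, 1832 several and 2473 none in the platform annotation. The gene identifiers of all 10 members matched RefSeq (GRCh38.p14, names only) with 0 symbols updated. Differences of log2 values were computed with Python 3.11.15, numpy 2.4.6 and pandas 2.3.3, and the counting was tested on simulated data. Whether the 4 cultures came from 1 passage is not stated. From each list up to 4 genes of largest difference above the floor on all arrays were named, and the 3 nearest genes. The members, lists and sizes were chosen with earlier results of these data known. Alternatives covered the probe sets, the normalization, the floor and the fold size.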

Additional observations from a re-analysis of the deposited data

Results flagged for a closer look

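For 3 of the 10 genes sunitinib went with a higher level in the absence of dihydroberberine and a lower one in its presence, each by more than the median SD between probe sets. This opposite sign with 1 library per condition was not tested. TRIB3 differed by 0.35 without and -0.40 with dihydroberberine, a deviation from additivity of -0.75. GDF15 differed by 0.38 and -0.46, a deviation of -0.83, and all 5 of its probe sets had these signs. STC2 differed by 0.60 and -0.55, a deviation of -1.15, but 2 of its 3 probe sets gave small positive values of 0.13 and 0.09 in the presence of dihydroberberine, so its flag rests on 1 probe set. All 3 negative values use the dihydroberberine array, whose 18S and Alu signals differed from untreated by -0.63 and -0.41.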

How the results depend on the processing

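With 1 array per condition no library could be left out of a group, and no replicate block was fitted, since no condition has a second array. An additive fit of the 2 drugs over the 4 arrays was not run. At 3-fold, dihydroberberine gave 2 genes (GDF15 and NUPR1) and 1 higher with dihydroberberine only, and the combination gave 0 against sunitinib and 0 against dihydroberberine. At 1.5-fold sunitinib gave 3 genes, 3 were higher with each drug, and the combination against dihydroberberine gave 2 (NUPR1 and SESN2). With the combination against sunitinib in place of the dihydroberberine library, chosen after seeing the data, 1 gene was higher with dihydroberberine only, 1 with sunitinib only and 0 with each drug. The median of the combination against dihydroberberine was -0.22, and -0.0705 with the mean of all probe sets or of those above the floor. The other counts and medians kept within 1.5 times or within the spread between probe sets. Averaging probe sets moved 8 of 35 values of genes with several of them by more than that spread, and STC2 was no longer 2-fold higher with both drugs, leaving 2 genes. Quantile normalization moved 1 of the 35. A stricter floor or no filter cannot move these values, and raising values to the floor can move only those of genes with a level under it. STC2 with dihydroberberine was 1.05 with the mean of its probe sets.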
